A study of Homo sapiens with 6 samples.

Results

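Of the 19777 genes that a probe set of the array names alone, 56 were taken here as genes of cytosolic ribosomal proteins. They were chosen by symbol, as RPL or RPS with a number and at most a closing A, L or X, or as RPLP0, RPLP1, RPLP2 and RPSA. The RPS6K kinases and the pseudogenes were left out. The rule itself uses no measured value, but it was chosen with earlier results of these data known. The 56 comprised 35 genes of the large subunit and 21 of the small subunit, read by 117 probe sets. RPLP0 and RPSA were not analysed here, and 15 further genes of the family, among them RPL4, RPL5, RPL13A and RPS2, were named only on probe sets that also name other genes.

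Panc-1, an established line from a human pancreatic ductal adenocarcinoma, was measured on HG-U133 Plus 2.0 expression arrays. The 3 treated samples had received TGFβ for 48 h, at 5 ng/mL by the labels, and the 3 untreated samples had received none. By the methods of the study, the untreated cells spent the same 48 h in plain fresh medium. Both groups were first held for 24 h without serum. The labels describe 3 repeats of the experiment on this single line without naming separate cultures, so the p-values measure the spread between these arrays, which may in part be technical.

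Each ribosomal protein is made in about the same number of copies as the others, because most sit as a single copy on each ribosome, and cells coordinate their output largely through translation. Their mRNAs typically begin with a C and an unbroken run of pyrimidines, the terminal oligopyrimidine (TOP) tract, through which mTOR and the RNA-binding protein LARP1 control how many of them are translated. An array measures the amount of mRNA and does not see this step. TGFβ drives an epithelial to mesenchymal transition in these cells, with a broad change of the transcriptome around the ribosomal genes.

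The start sites below were taken from RefSeq on GRCh38.p14, as 20 bases before the annotated start and 20 after it, 5′ to 3′ on the strand of the gene. Capitals mark a run that opens at the start with a C and holds at least 4 further C or T, the mark of a TOP mRNA. They are shown for the members with the largest rise and with a large fall, for the proteins of the ribosomal stalk, and for RPS27 beside its paralogue RPS27L.
RPS24, chr10:78033843-78033882, plus strand: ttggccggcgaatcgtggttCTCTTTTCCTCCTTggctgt
RPL31, chr2:101002269-101002308, plus strand: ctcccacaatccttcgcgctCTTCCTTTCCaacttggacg
RPL22, chr1:6199576-6199615, minus strand: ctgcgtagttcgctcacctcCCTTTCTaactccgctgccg
RPS28, chr19:8321476-8321515, plus strand: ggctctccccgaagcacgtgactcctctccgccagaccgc
RPLP1, chr15:69452798-69452837, plus strand: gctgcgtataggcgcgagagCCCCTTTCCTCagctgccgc
RPLP2, chr11:809947-809986, plus strand: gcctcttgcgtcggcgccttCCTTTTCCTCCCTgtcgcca
RPL12, chr9:127451387-127451426, minus strand: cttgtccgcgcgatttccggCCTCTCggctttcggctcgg
RPS27, chr1:153990742-153990781, plus strand: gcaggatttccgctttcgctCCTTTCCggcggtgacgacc
RPS27L, chr15:63157458-63157497, minus strand: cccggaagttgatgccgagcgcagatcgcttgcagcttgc

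A window was at hand for 48 of the 56 genes, and 34 of them (70.8%) held the run at an annotated start, against 5.14% of the 27305 genes with a window in the table. Among the 8409 other genes measured here that had a window, the share was 7.09%. RPS28 and RPS27L lacked the run at the annotated base, although RPS28 has pyrimidine stretches within the next few bases. RPS15A, whose gene mean had the largest difference among the measured members, had no window.

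Under TGFβ the measured differences of the ribosomal protein mRNAs were small. The differences given below are log2 signal with TGFβ minus log2 signal without it, and a gene is the mean of its own probe sets that reached a mean signal of 100 on the linear scale in either group. Of the 56 genes, 52 reached that limit, with a mean log2 signal of 7.84 to 14.54. The median difference over the 52 was -0.07, beside -0.01 over all 10120 genes measured, and the median size of a difference regardless of sign was 0.08, beside 0.21 over all genes. No member differed by 1.5-fold, a size that 13.4% of all genes reached. RPS15A, RPL31, RPS28 and RPS24 differed by 1.2-fold or more (7.69% of members), beside 42.0% of all genes. The 95% confidence interval lay wholly within 1.2-fold of no change for 36 of the 52 members (69.2%) and for 29.9% of all genes. Without replicate number 2, the median of the members was -0.043. The members were also read far up the scale of the array, at a median log2 signal of 13.57 beside 8.61 for all genes, with 14.76 the highest value in the table. Probe sets of other genes at 13 or more had a median size of difference of 0.10, beside 0.22 over all probe sets, and the part of compression near the top of the scale in the small differences was not tested.

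By limma, with adjustment over all 10120 genes and a call at an adjusted p under 0.05, 2 members rose, 11 fell and 39 were not called. That is 13 of 52 members (25%), in a data set where 58.6% of all genes were called, 27.6% higher and 31.0% lower. The large subunit had 1 higher and 7 lower among 31 genes (median -0.07), and the small subunit 1 higher and 4 lower among 21 (median -0.07). The arrays themselves separated more often than the calls did. All 3 TGFβ arrays were below all 3 untreated arrays for 29 of 52 members, beside 35.5% of all genes, and above them for 6 members, beside 32.7% of all genes. The members with no overlap between groups included differences as small as the -0.02 of RPL41, whose arrays within a group had an SD of 0.00 untreated and 0.01 with TGFβ.

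**Figure D1:**
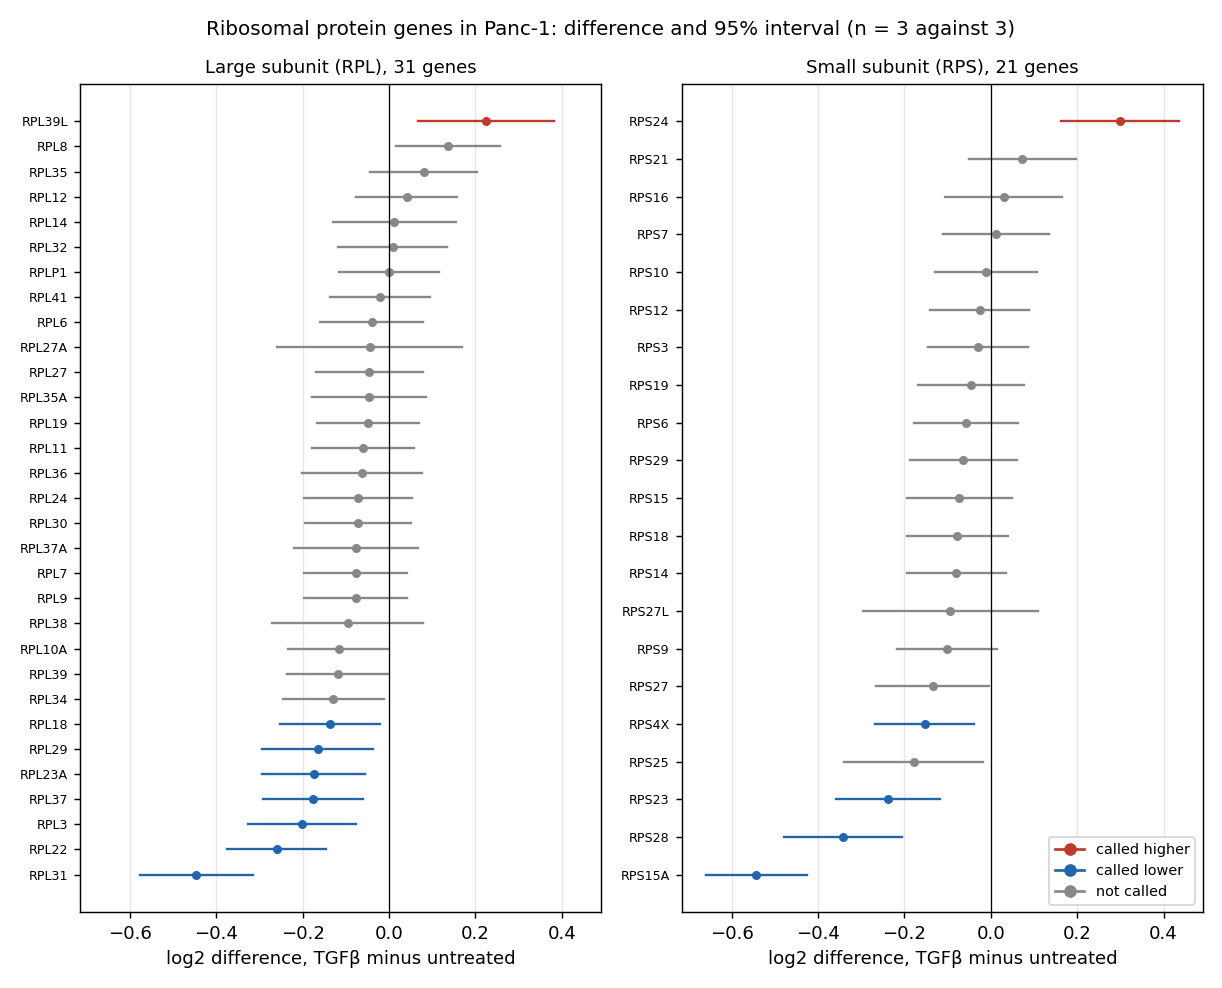
Log2 difference of the 52 measured ribosomal protein genes, with TGFβ minus untreated, as points with 95% confidence intervals from limma (3 arrays against 3), for the large subunit on the left and the small subunit on the right. The points crowd just below 0, with RPS15A and RPL31 at the lower end and RPS24 and RPL39L at the upper end.

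How many members count as changed depended on how the test estimates the error of bright, tight measurements. The median SD between arrays of a group was 0.03 for members and 0.06 for all genes, while the median standard error in the limma fit was 0.05 for members and 0.06 for all genes, since the fit draws each gene toward a common variance. In another fit, that common variance was allowed to follow the signal and was also estimated robustly against genes of outlying variance. There 4 members were called higher and 23 lower, which is 51.9% of members beside 60.7% of all genes. Neither change was run alone. The sizes of the differences were the same in both fits. Leaving out a replicate number with its 2 arrays left 15 members called lower without number 1, 5 without number 2 and 4 without number 3. RPS15A, RPL31, RPS28, RPL22 and RPS24 were called in all 3 of these smaller fits, RPS24 through a probe set that passed the signal limit only with TGFβ and without which the gene was not called (-0.035).

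The stalk of the large subunit recruits the elongation factors, and the 2 of its 4 listed proteins that were measured barely differed. RPLP1, an acidic protein at the tip of the stalk, had a log2 signal of 14.18, 14.22 and 14.21 untreated and 14.21, 14.19 and 14.21 with TGFβ. Its groups overlapped, and the difference was 0.00 (SE 0.05, 95% interval -0.12 to 0.12, limma adjusted p = 0.999). RPL12, which forms the base of the stalk, had 13.81, 13.83 and 13.80 untreated and 13.86, 13.85 and 13.86 with TGFβ. All its TGFβ arrays were higher, by 0.04 (SE 0.05, limma adjusted p = 0.498). RPLP2, the partner of RPLP1, did not reach the signal limit on the probe sets that name it alone, with a log2 signal of 4.42 to 4.50 untreated and 4.38 to 4.64 with TGFβ.

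RPL11 belongs to the particle of 5S ribosomal RNA that restrains MDM2 when ribosome assembly fails. Its signals were 13.45, 13.44 and 13.47 untreated and 13.41, 13.39 and 13.37 with TGFβ. The groups did not overlap, and the difference of -0.06 was not called (SE 0.05, limma adjusted p = 0.327). RPS3, at the channel where mRNA enters the small subunit, had 13.96, 13.99 and 13.97 untreated and 13.95, 13.96 and 13.93 with TGFβ, a difference of -0.03 (SE 0.05, limma adjusted p = 0.625). RPS6, the small subunit protein that S6 kinases phosphorylate, had 13.34 to 13.38 untreated and 13.23 to 13.34 with TGFβ, with overlapping groups.

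Among the 52 measured members, the largest fall was that of RPS15A, a small subunit protein. Averaged over its probe sets, its log2 signal was 11.12, 11.13 and 11.04 untreated and 10.56, 10.58 and 10.53 with TGFβ. The groups were far apart, and the gene fell by 0.54 on the log2 scale, or 1.46-fold (SE 0.05, limma adjusted p = 0.000272). The fall came almost wholly from 1 of its probe sets. Probe set 235309_at, with signals of 8.05, 8.05 and 7.85 untreated, read 6.98, 7.07 and 6.95 with TGFβ, a fall of 0.98 or 1.97-fold (limma adjusted p over all probe sets = 9.18e-05). Probe set 200781_s_at, among the bright readings of the array, went from 14.20, 14.22 and 14.24 to 14.14, 14.08 and 14.12, a difference of -0.11 that was not called (limma adjusted p = 0.144).

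RPL31, a protein at the exit of the tunnel through which the new peptide leaves, fell by 0.45, or 1.36-fold (SE 0.05, limma adjusted p = 0.000849). Its log2 signals were 9.59, 9.64 and 9.67 untreated and 9.24, 9.15 and 9.19 with TGFβ. The fall again belonged to the dim probe sets. Probe set 200962_at went from 7.12, 7.07 and 7.23 to 6.40, 6.48 and 6.49, a fall of 0.68, and 221593_s_at from 7.87, 8.04 and 7.97 to 7.55, 7.30 and 7.32, a fall of 0.57. The bright 200963_x_at had 13.79, 13.82 and 13.82 untreated and 13.76, 13.68 and 13.74 with TGFβ, a difference of -0.09 that was not called. The mean of 200962_at reached the signal limit only without TGFβ, so a probe set of this kind enters through the group in which it is higher.

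RPS28, a small protein at the mRNA exit of the small subunit, was lower on both of its measured probe sets. Together they read 10.41, 10.39 and 10.31 untreated and 9.98, 10.04 and 10.06 with TGFβ, a fall of 0.34 or 1.27-fold (SE 0.06, limma adjusted p = 0.00295). The bright 208904_s_at went from 13.63, 13.66 and 13.72 to 13.50, 13.44 and 13.48 and fell by 0.20 (limma adjusted p = 0.028). The dim 208903_at, past the signal limit only without TGFβ, fell by 0.49 (limma adjusted p = 0.007). RPS28 was thus 1 of the few members whose brightest probe set passed the test.

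RPL22, a large subunit protein that also binds the EBER RNAs of Epstein-Barr virus and is not essential for translation, was lower on all 5 of its probe sets. Its mean signal was 12.99 ± 0.01 untreated and 12.73 ± 0.01 with TGFβ (SD, n = 3), a fall of 0.26 (SE 0.05, limma adjusted p = 0.00435). The 3 probe sets of class _x_at, whose probes can bind related sequences, differed by -0.12 to -0.14 and were not called. Probe set 221726_at fell by 0.57, from 12.25, 12.24 and 12.10 to 11.58, 11.68 and 11.63, and 214042_s_at fell by 0.35. Its paralogue RPL22L1, outside the symbol rule, moved the other way. RPL22L1 had 9.77, 9.87 and 10.00 untreated and 10.70, 10.45 and 10.55 with TGFβ and rose by 0.69, or 1.61-fold (limma adjusted p = 0.000905), with no overlap of the groups. It was the single called gene among the 4 paralogues outside the rule, and RPL26L1 (0.11), RPL36AL (-0.08) and RPL7L1 (0.01) were not called.

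RPS23, a protein of the decoding centre, was called lower at -0.24 (SE 0.05, limma adjusted p = 0.0074), with signals of 11.40, 11.35 and 11.34 untreated and 11.15, 11.16 and 11.06 with TGFβ. Its probe sets disagreed in whether anything had moved. The bright 200926_at stood at 14.08, 14.07 and 14.08 untreated and 14.09, 14.07 and 14.07 with TGFβ, a difference of 0.00, while the dim 227722_at went from 8.73, 8.63 and 8.59 to 8.22, 8.25 and 8.04, a fall of 0.48. RPL37, a zinc-binding protein of the large subunit, fell by 0.18 (SE 0.05, limma adjusted p = 0.0199) with -0.42 on 224763_at, -0.03 on 224767_at and -0.08 on its bright 200092_s_at.

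The remaining called members fell on bright probe sets and by smaller amounts. RPL3, which reaches from the surface of the large subunit to its peptidyl transferase centre, read 13.80, 13.82 and 13.82 untreated and 13.67, 13.60 and 13.57 with TGFβ, a fall of 0.20 or 1.15-fold (SE 0.05, limma adjusted p = 0.016). RPL23A, which binds the signal recognition particle at the tunnel exit, read 14.35, 14.32 and 14.34 untreated and 14.19, 14.11 and 14.19 with TGFβ, a fall of 0.18 (SE 0.05, limma adjusted p = 0.0221). Neither gene's groups overlapped. RPL29 fell by 0.17 (limma adjusted p = 0.0353), RPS4X by 0.15 (limma adjusted p = 0.0321) and RPL18 by 0.14 (limma adjusted p = 0.0487). In the fit over probe sets, the only measured probe set of RPL18 was not called (limma adjusted p = 0.0725). The brighter probe sets of RPL29 (limma adjusted p = 0.0645) and RPS4X (limma adjusted p = 0.0606) were not called either, while the dimmer one of each was. The calls of RPL3, RPL23A, RPL37, RPL29, RPS4X and RPL18 were lost without replicate number 2 and without number 3, and that of RPS23 without number 3. RPL18 was the smallest difference called, and RPS25, at -0.18 with a wider spread (13.66, 13.72 and 13.79 untreated, 13.64, 13.49 and 13.51 with TGFβ), was not called (limma adjusted p = 0.0569).

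RPS24, a small subunit protein mutated in some patients with Diamond-Blackfan anaemia, was called higher by 0.30, or 1.23-fold (SE 0.06, limma adjusted p = 0.00504). Its mean signals were 10.12, 10.12 and 10.05 untreated and 10.36, 10.36 and 10.46 with TGFβ. The call rested on probe set 1555878_at, which read 6.21, 6.17 and 6.02 untreated and 6.69, 6.72 and 6.88 with TGFβ, a rise of 0.63. That probe set passed the signal limit only in the TGFβ group. The bright 200061_s_at had 14.03, 14.07 and 14.08 untreated and 14.03, 14.01 and 14.03 with TGFβ, and where the dim probe set was left out by a filter on the mean of all arrays, RPS24 stood at -0.04 (limma adjusted p = 0.559). RPS21, whose probe set 214097_at rose by 0.22 while its bright 200834_s_at stood at -0.08, was not called as a gene (0.07, limma adjusted p = 0.264).

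RPL39L, the autosomal paralogue of the X-linked RPL39 and best known from male germ cells, was the other member called higher. Its single probe set read 9.54, 9.63 and 9.54 untreated and 9.78, 9.72 and 9.89 with TGFβ, a rise of 0.22 or 1.17-fold (SE 0.06, limma adjusted p = 0.0252) that was not called without replicate number 3. RPL39 itself had 14.00, 13.98 and 14.01 untreated and 13.85, 13.89 and 13.89 with TGFβ, a difference of -0.12 (SE 0.05, limma adjusted p = 0.0753). Both pairs of groups were free of overlap, in opposite directions. RPS27L, a paralogue of RPS27 that p53 induces, had overlapping groups at 9.20 ± 0.09 untreated and 9.10 ± 0.12 with TGFβ (SD, n = 3). Its brighter 218007_s_at was lower on every TGFβ array (-0.13, not called), while the groups overlapped on its dim 222487_s_at (-0.06). Without replicate number 1 the gene was called lower. RPS27 differed by -0.14 (limma adjusted p = 0.0733). The paralogues RPL3L, known from striated muscle, and RPL10L, known from testis, stayed under the signal limit, at 4.45 to 4.60 and at 6.31 to 6.56 over all 6 arrays. The X-linked RPL36A was under the limit too, at 3.70 to 3.99. RPL8, at the peptidyl transferase centre, had 13.79, 13.84 and 13.82 untreated and 13.97, 13.94 and 13.95 with TGFβ, and its difference of 0.14 missed the call (limma adjusted p = 0.055).

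**Figure D2:**
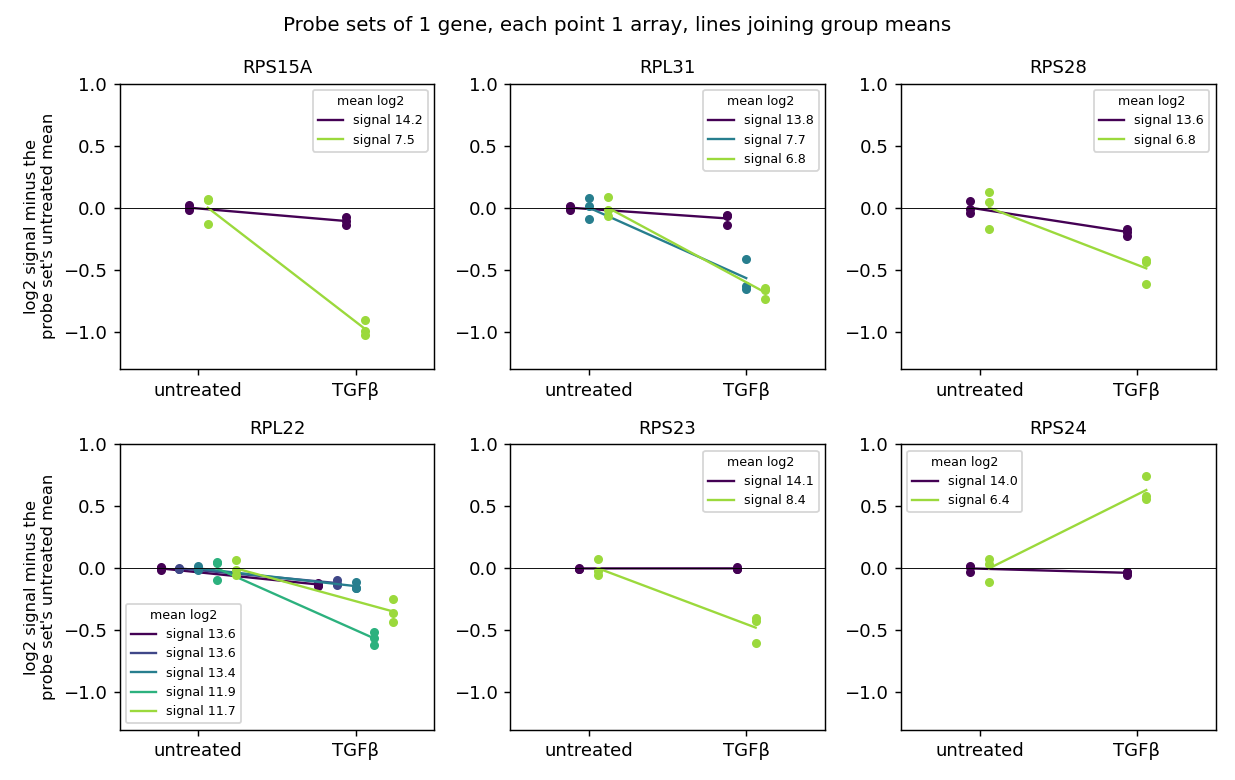
Log2 signal of each array minus the untreated mean of its probe set, for the measured probe sets of 6 genes, coloured by the probe set's mean log2 signal, with lines between group means. Within a gene the darkest line, the brightest probe set, stays nearest to 0 in RPS15A, RPL31, RPS23 and RPS24, while dim probe sets of the same gene move by 0.48 to 0.98.

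Bright and dim probe sets were then compared over all members. Of their 117 probe sets 89 reached the signal limit, and in a limma fit over all 19115 probe sets 3 rose and 13 fell, or 18.0%, where 55.1% of all probe sets were called, 26.6% higher and 28.5% lower. Among the 65 with a mean log2 signal of 13 or more, 5 fell and 0 were called higher by limma (1 higher at an unadjusted p under 0.05), and the largest difference in either direction was the -0.20 of RPL3. Of the other 290 probe sets in that range, 28.6% were called, and their median size of difference was 0.10, beside 0.07 for the ribosomal ones. Among the 24 ribosomal probe sets under 13, 3 rose and 8 fell, with a median size of 0.16.

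**Figure D3:**
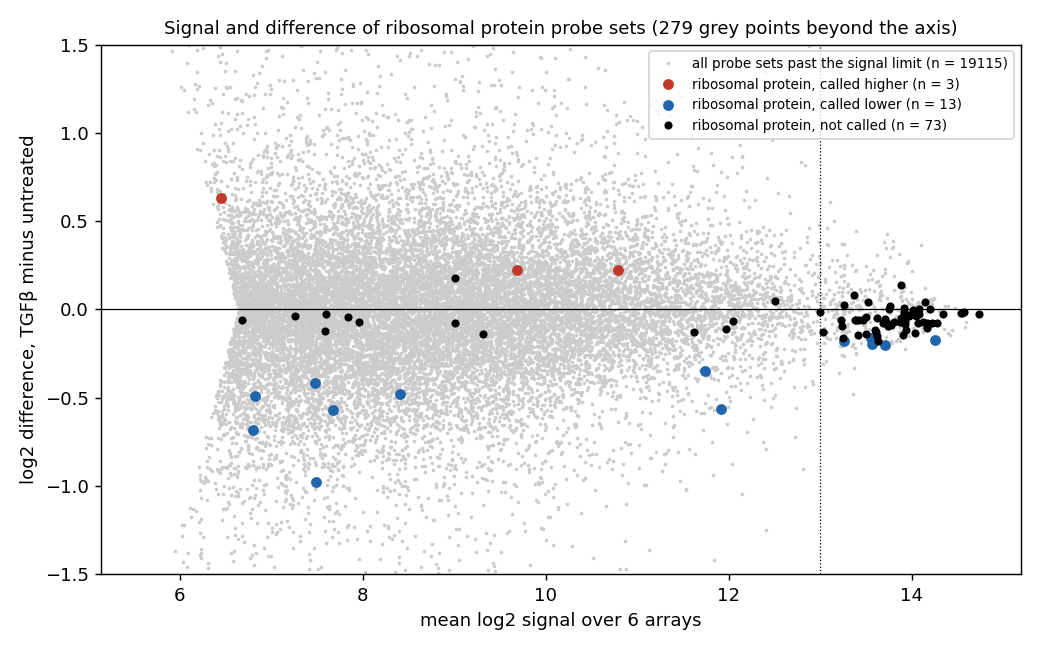
Mean log2 signal over the 6 arrays against the log2 difference (TGFβ minus untreated) for all probe sets in grey and the 89 ribosomal protein probe sets in colour, with a dotted line at a signal of 13. Most ribosomal probe sets lie right of the line within 0.20 of 0, and the larger called differences lie left of it. The vertical axis leaves out 279 grey points.

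Of the 25 members with several measured probe sets, the median distance between the highest and the lowest difference within a gene was 0.07, and in 8 genes it exceeded 0.25. In other genes bright and dim probe sets lay close together, such as RPL37A and RPL38, with distances of 0.10 and 0.06 between probe sets whose signals were 6.76 and 4.90 apart. No gene had probe sets called in opposite directions. Taking the brightest probe set of each gene alone, 1 member was called higher (RPL39L) and 3 lower (RPL3, RPL23A and RPS28), beside 57.2% of all genes called by the same rule. Which part of a transcript or which isoform a dim probe set reads was not tested. Signals of different probe sets are not levels of expression that can be set against each other, and they show here only where on the scale of the array a reading was taken.

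By role, the members split into small groups counted in the same fit, in which 58.6% of all genes were called. Of the 5 measured proteins around the tunnel (RPL19, RPL23A, RPL31, RPL35 and RPL39), 2 fell and the median was -0.12. Of the 10 proteins of the small subunit's head, 1 fell (RPS28) and the median was -0.05. Of the 14 measured genes mutated in Diamond-Blackfan anaemia, 1 was called higher (RPS24) and 4 lower (RPS15A, RPS28, RPL31 and RPL18). Their median was -0.05, and 35.7% were called. The call of RPS24 came through a probe set past the signal limit only with TGFβ, without which the gene stood at -0.035 and was not called. Among these called genes, RPS28 alone was also called on its brightest probe set. The 32 measured members with a pyrimidine run at their start had a median of -0.06, and the 13 with a window and no such run had -0.07. The other 596 measured genes with the run had a median of -0.04 and a median size of difference of 0.21.

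The lists of genes that build or use the ribosome were read in the same fit, with 27.6% of all genes called higher and 31.0% lower. Besides the paralogues above, FAU was the only listed gene of the ribosome outside the symbol rule that was measured. It encodes a ribosomal protein fused to a ubiquitin-like protein and had 13.55, 13.61 and 13.58 untreated and 13.59, 13.57 and 13.63 with TGFβ. Of 104 ribosome biogenesis factors, 73 rose and 4 fell, with a median of 0.29. EIF6, which keeps the new large subunit from joining too early, rose by 0.79, the nucleolar protein NOP16 by 0.77 and IMP4 of the small subunit processome by 0.74, while EXOSC6 fell by 0.47, KRR1 by 0.37 and IMP3 by 0.31. Of 14 genes of RNA polymerase I and its factors, 6 rose and 1 fell (median 0.16), led by POLR1G at 0.83, POLR1H at 0.41 and POLR1C at 0.40, with RRN3 at -0.19.

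The mitochondrial ribosome, built from a separate set of nuclear genes, was measured for 75 proteins. Of these 37 rose and 9 fell, with a median of 0.14, and MRPL15 (0.62), MRPS12 (0.55) and MRPL52 (0.46) rose most while MRPS6 (-0.40), MRPL28 (-0.29) and MRPL45 (-0.25) fell most. Of 32 initiation factors 13 rose and 3 fell (median 0.11), among them EIF5 at 0.44, EIF3J at 0.37 and EIF4H at 0.35, against EIF4B at -0.65, EIF3L at -0.33 and EIF3F at -0.29. Among 12 elongation and termination factors, 3 rose (EIF5A 0.53, ABCE1 0.42 and ETF1 0.33) and 4 fell (GSPT2 -0.48, EEF2K -0.47, EEF1A2 -0.31 and EEF1A1 -0.31), a called share of 58.3% beside the 58.6% of all genes. EIF4B, EIF3F and EEF1A1 also stand on the list of 14 other TOP mRNAs, in which 1 rose (EIF3E, 0.20) and 5 fell, NAP1L1 (-0.34) and HNRNPA1 (-0.33) being the others, with a median of -0.11. Of 20 genes of mTOR signalling and the LARP proteins, 8 rose and 5 fell (65.0%, near the share of all genes), from the 1.17 of EIF4EBP1, 0.86 of SESN2 and 0.47 of AKT1S1 to the -1.36 of the mTOR inhibitor DEPTOR, -0.42 of EIF4EBP2 and -0.40 of RICTOR. ZFAS1, the only measured gene of the snoRNA hosts, was not called (-0.04). Over the alternative settings the biogenesis factors called higher numbered 33 to 74 and the mitochondrial proteins 12 to 42, while the medians of both lists stayed positive, at 0.21 to 0.32 and 0.11 to 0.16. These lists share the same 6 arrays with the ribosomal proteins, and differences between lists were not tested.

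**Figure D4:**
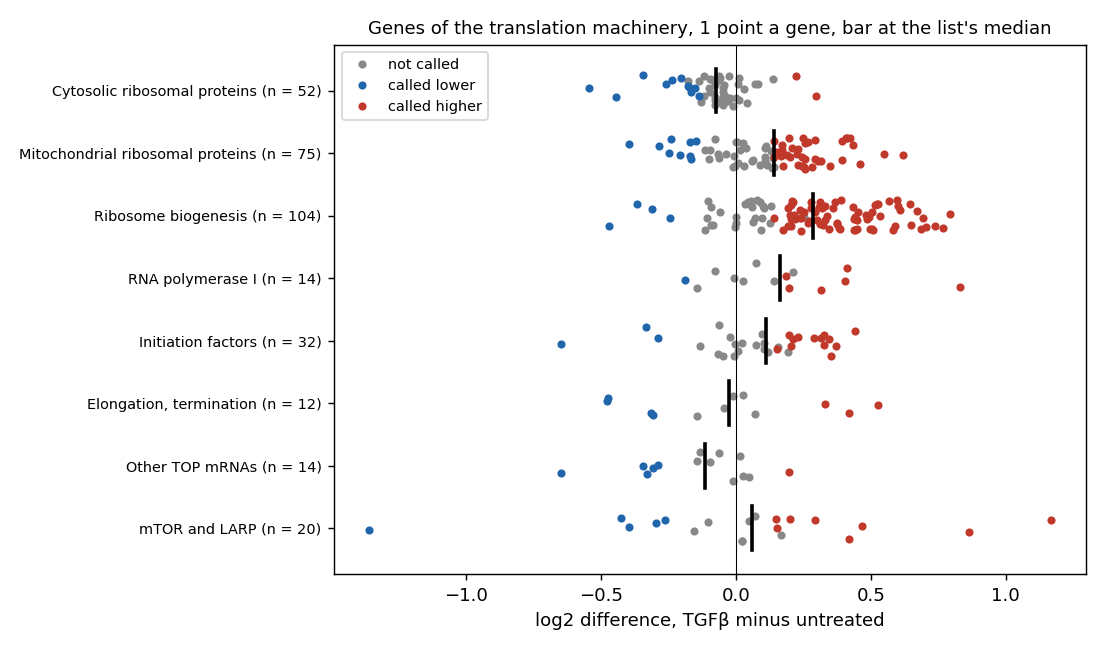
Log2 difference (TGFβ minus untreated) of each measured gene in the cytosolic ribosomal proteins and 7 other lists of the translation machinery, coloured by call, with a bar at each list's median. The cytosolic ribosomal proteins had a median of -0.07 at a median log2 signal of 13.57, a range in which other probe sets differed little too, while the biogenesis factors spread to the right with a median of 0.29.

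Markers of cell types were read in the same fit, whose differences do not check the identity of the line. Of 6 listed ductal epithelial markers, 5 were measured and KRT19 stayed under the signal limit. KRT8 (-2.18), CDH1 (-2.02), KRT18 (-1.25) and EPCAM (-0.80) fell, and KRT7 (0.24) was not called. Of 9 listed markers of blood, endothelial, islet or acinar cells, 8 were named alone by a probe set. None of these reached the signal limit (highest mean log2 signal 6.37). Array medians lay between 5.14 and 5.21. The hybridisation controls had means of 10.15 to 10.31 untreated and 10.08 to 10.33 with TGFβ. On the control probe sets for ACTB, the end nearest the tail of the mRNA exceeded the far end by 0.55 ± 0.03 untreated and 0.33 ± 0.06 with TGFβ (log2, SD, n = 3), and for GAPDH by -0.01 ± 0.01 and -0.03 ± 0.02. The part of this shift in the differences of the ribosomal probe sets was not tested. Total RNA per cell cannot be told apart from composition on arrays scaled to one another, so a log2 difference here is a share of the mRNA measured.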

How the data were processed

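Total RNA from 6 Panc-1 samples was hybridised to 1-colour HG-U133 Plus 2.0 arrays, and the deposited values were log2 signals of 54675 probe sets that the authors had already normalised. The software and the normalisation method are not given in the sources used here, and the number of arrays limits the precision. The values were used as deposited. The labels give the TGFβ dose as 5 ng/mL while the methods of the study use a molar unit. The platform annotation named 1 gene for 41091 probe sets, several for 1801 and none for 11721, and all 56 member genes were found in RefSeq. For each gene, the probe sets naming it alone whose mean linear signal reached 100 in either group were averaged.

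Linear models (lmFit, then eBayes, two-sided) were run for all measured genes and, apart, for all measured probe sets, using limma 3.58.1 under R 4.3.3. The replicate number entered as a block, after the paired test of the study, and p-values were adjusted by Benjamini-Hochberg over the whole table. The residual degrees of freedom were 2 and the prior added 4.11. The script was tested on simulated data. Summaries used pandas 2.3.3 and plots matplotlib 3.10.9, both under Python 3.11.15.

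The members and gene lists were chosen with earlier results of these data known. Named were the called members with the 10 largest rises and falls that moved alike in all 3 same-numbered pairs, the stalk proteins, the paralogues, members under the signal limit, members of role groups of up to 4 genes, and in each other list the 3 largest called rises and falls. RPL18, RPL8, RPL41, RPS6, RPS21, RPS25 and RPS27 were added after their values were seen. In all 20 alternative settings were run, and 2 choices of probe sets were added after seeing the data. Pseudogene transcripts can bind some probe sets, and how much was not tested.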

Additional observations from a re-analysis of the deposited data

How the results depend on the processing

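The median difference of the ribosomal proteins was negative under every alternative run, from -0.043 without replicate number 2 to -0.094 without number 1, and -0.05 with centring on the hybridisation controls. The counts of calls moved far more. Without the replicate block, 21 probe sets were called lower. The same-numbered arrays did not deviate together (correlations -0.29, 0.24 and 0.06), so the block pairs numbers only. With a robust variance that follows the signal, 4 genes and 5 probe sets were higher and 23 genes and 41 probe sets lower. Centring on the hybridisation controls left 1 and 3 genes, 1 and 8 probe sets, and 2083 of all genes lower. Median centring left 6 genes lower, and 1 probe set higher and 8 lower. Quantile normalisation gave 20 probe sets lower. No signal filter left 7 genes lower, and a filter on the mean of all arrays 1 gene higher. Without _x_at probe sets, 6 of 44 genes were lower. Without _s_at as well, 6 of 21 genes and 6 of 24 probe sets were lower, with 1795 of all genes higher. The brightest probe set gave 1 and 3 genes. An adjusted p under 0.01 left 1 and 5 genes and 1 and 8 probe sets. The methods' t-test, unadjusted at 0.05, gave 18 genes lower on either scale and 24 (log2) or 25 (linear) probe sets lower. After Benjamini-Hochberg adjustment it called 0 genes and 0 probe sets higher and 6 probe sets lower, with 1175 of all genes higher and 1221 lower. Unadjusted it called 2 genes and 4 probe sets higher, and limma called 2 and 3. Without 1 replicate number, 1 to 2 genes were higher and 4 to 15 lower, and 1 to 4 probe sets higher and 8 to 19 lower. Adding the probe sets shared with small RNAs gave 29 lower, and only those with a signal of 13 or more 0 higher and 5 lower. RPS24 turned to -0.035 under the stricter filter, the filter on the mean and the brightest probe set, and RPS23 to 0.00037 with the brightest. The causes were not tested. With the block and a common variance, the smallest member difference called was 0.14 (RPL18). The -0.12 of RPL39 was called without the block and with the robust variance that follows the signal.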

Other observations

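Many ribosomal protein genes carry small nucleolar RNA genes in their introns, and 49 probe sets of the array name 1 ribosomal protein gene together with small RNAs only, which left them outside the choice of members. Of these, 38 reached the signal limit, and in the limma fit over all probe sets 16 fell and 0 rose (1 higher at an unadjusted p under 0.05), with a median difference of -0.12. That is 42.1% called, where 55.1% of all probe sets were called and 28.5% were called lower. The 16 belonged to 6 genes, RPL3, RPL7A, RPL13, RPL13A, RPL23 and RPL28, and all but RPL3 were named on shared probe sets alone.

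The lowest was a probe set of RPL13A, a protein of the large subunit that also takes part in silencing of inflammatory mRNAs. Its log2 signal was 12.46, 12.49 and 12.46 untreated and 11.55, 11.66 and 11.58 with TGFβ, a fall of 0.87 or 1.83-fold (limma adjusted p = 9.7e-05). RPL13, another large subunit protein, fell on 6 shared probe sets, and RPL3 fell by 0.18 to 0.19 on 4, near the 0.20 of the probe set that names it alone. RPLP2, under the signal limit on its own probe sets, had a shared probe set with a mean log2 signal of 13.87 that differed by -0.05 (limma adjusted p = 0.515).

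Of 11 probe sets that name a ribosomal protein pseudogene alone, 3 reached the signal limit. Those of RPL23AP32 and RPL7AP10 fell by 0.31 and 0.28, where 28.5% of all probe sets were called lower, and that of RPL13AP17 was not called (-0.18). The probe set of RPL23AP32 passed the signal limit only without TGFβ.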
